A study of Mus musculus with 8 samples.

Results

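Troponin is the calcium switch of striated muscle, and its 8 genes in the mouse are Tnni1, Tnni2 and Tnni3 for troponin I, Tnnt1, Tnnt2 and Tnnt3 for troponin T, and Tnnc1 and Tnnc2 for troponin C. These 8 genes were read from an expression study of hearts lacking steroid receptor coactivator-2 (SRC-2), and they are 8 of the 18194 genes measured. The array carried 12 probesets for them among 45101 in all, with 3 each for Tnni2 and Tnnt2 and 1 for each of the others. The members were set by name, as the full troponin family, and each was represented by its probeset with the highest mean over all hearts.

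RNA came from whole hearts of 4 SRC-2 KO mice and 4 WT mice, each hybridised to its own Affymetrix mouse expression array. The SRC-2 KO mice carry a disrupted Ncoa2, the gene that encodes SRC-2, in the germline, so that every tissue lacks it and not the heart alone. Both genotypes were males of the C57B/6Jx129Sv background, fed ad libitum and unstressed, 10 to 12 weeks old by their labels, while the methods describe age-matched littermates over a wider age range. Each array held RNA of an individual mouse. Ncoa2 was read first as a check of the labels, and its signal was 235 to 267 in the 4 SRC-2 KO hearts, against 1660.3 to 2134 in the 4 WT hearts. All signals are on a linear scale on which every array had been set to the same trimmed mean of 500.0, and 36.9% to 40.7% of probesets on an array lay under 50, the level treated here as close to background. Signals of different probesets are not on a common scale, so levels are compared between hearts and never between genes.

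The troponin complex sits on the thin filament of the sarcomere. Troponin C binds calcium, troponin I holds back the interaction of actin with myosin until calcium arrives, and troponin T anchors the complex to tropomyosin. Each subunit has forms that differ by muscle type. Tnni3 and Tnnt2 encode the forms of the adult heart, Tnni1 and Tnnt1 those of slow skeletal muscle, and Tnni2, Tnnt3 and Tnnc2 those of fast skeletal muscle, while Tnnc1 serves both the heart and slow skeletal muscle. The fetal heart also uses Tnni1, which gives way to Tnni3 after birth. Each gene for troponin I lies near a gene for troponin T. In the RefSeq gene table of the GRCm38.p6 assembly, Tnni3 and Tnnt1 are direct neighbours on chromosome 7, Tnni2 and Tnnt3 lie on chromosome 7 with Lsp1 between them, and Tnni1 and Tnnt2 lie on chromosome 1 with Lad1 between them. Tnnc1 lies on chromosome 14 and Tnnc2 on chromosome 2.

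The cardiac forms had signals far above background in every heart, and none of them passed the test between genotypes. Tnni3, cardiac troponin I, had signals of 76942, 60037, 71600.2 and 54675 in SRC-2 KO hearts, against 61527, 64932, 57201 and 44872 in WT hearts. The averages were 65814 ± 10243 in SRC-2 KO hearts and 57133 ± 8765 in WT hearts (SD, n = 4 each), and the groups overlapped. The log2 fold change of SRC-2 KO over WT was 0.20, with a standard error of 0.17 and an adjusted p of 0.705 in the main limma fit, which draws the variance of every gene to 1 common value and adjusts p over all 18194 genes. The 95% interval of the change, -0.19 to 0.60, held 0, and the exact two-sided permutation test over the 8 hearts gave p = 0.286, where 0.0286 is the smallest value that 4 against 4 hearts allow. In RNA of a whole heart, fewer cells of a type and less RNA per cell cannot be told apart.

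Tnnt2, cardiac troponin T, had signals of 103521, 85074, 95529 and 80444.5 in SRC-2 KO hearts, against 81303, 90229, 76994 and 66918 in WT hearts. Here too the groups overlapped, with a log2 fold change of 0.21 ± 0.14 (SE), an interval of -0.11 to 0.54 and an adjusted p of 0.633 in the limma fit. The second probeset of Tnnt2, which the array design marks as open to cross-hybridisation, gave a log2 fold change of 0.21. The third Tnnt2 probeset was dim, with 311 ± 100.3 in SRC-2 KO hearts and 308 ± 56.7 in WT hearts (SD, n = 4 each), a log2 difference of -0.03.

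Tnnc1, the troponin C of heart and slow muscle, had signals of 67864, 57831, 63053 and 51079 in SRC-2 KO hearts, against 56582, 53264.5, 52049 and 40019.8 in WT hearts. Its log2 fold change was 0.25 ± 0.15 (SE) with an interval of -0.11 to 0.61 and an adjusted p of 0.607 in the limma fit. For all 3 cardiac genes the mean was higher in SRC-2 KO hearts, and the hearts of the 2 genotypes overlapped.

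The 3 cardiac genes varied together from heart to heart. SRC-2 KO heart 1 was the highest of all 8 and WT heart 4 the lowest for each of Tnni3, Tnnt2 and Tnnc1. Over the 8 hearts, Pearson's r of the log2 signals was 0.97 for Tnni3 with Tnnt2, 0.96 for Tnni3 with Tnnc1 and 0.93 for Tnnt2 with Tnnc1, given as a description because the points share the scaling of their arrays. With each genotype centred on its own mean, the same correlations were 0.98, 0.96 and 0.89.

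The bright end of the arrays moved with these genes. The mean signal of the 100 brightest probesets outside the troponins was 68249.6, 56245, 63532 and 53153 on the SRC-2 KO arrays, against 56014, 58706, 52597 and 45187 on the WT arrays, a mean log2 difference of 0.18. Its correlation over the 8 hearts was 0.99 with Tnni3, 0.99 with Tnnt2 and 0.96 with Tnnc1. Taken relative to it, the log2 difference between SRC-2 KO and WT was 0.02 for Tnni3, 0.03 for Tnnt2 and 0.07 for Tnnc1. This measure was chosen after the values were seen.

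**Figure D1:**
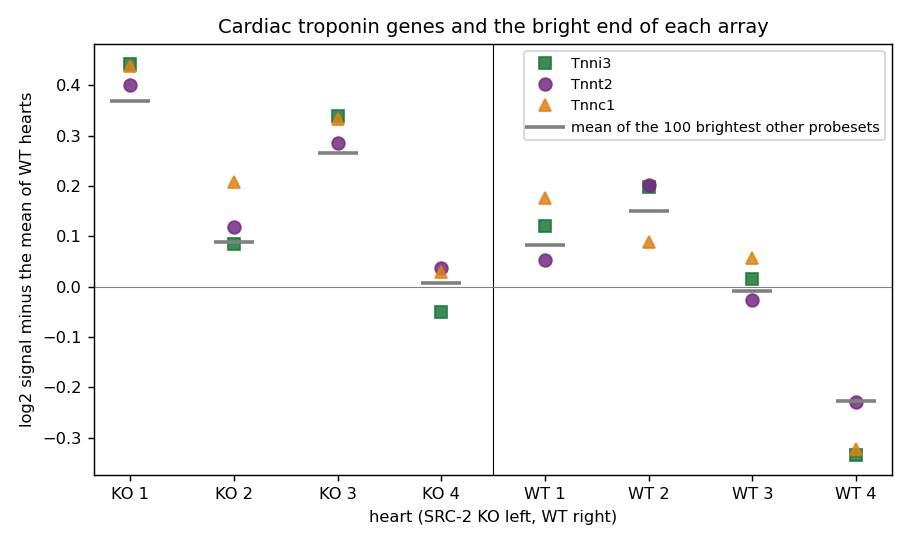
Log2 signal of Tnni3, Tnnt2 and Tnnc1, 1 point per gene and heart, relative to the average over WT, with SRC-2 KO hearts on the left and WT hearts on the right. The grey bars give the mean of the 100 brightest other probesets on the same scale, and the 3 genes lie close to them, highest in SRC-2 KO heart 1 and lowest in WT heart 4.

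Set against each other within a heart, the cardiac forms had similar ratios in both genotypes, which are given as a description. The difference between SRC-2 KO and WT hearts in the log2 ratio of Tnni3 to Tnnt2 was -0.01, with an SD over hearts of 0.07 in SRC-2 KO and 0.08 in WT. For Tnni3 to Tnnc1 it was -0.05 (SD 0.06 in SRC-2 KO and 0.07 in WT), and for Tnnt2 to Tnnc1 it was -0.04 (SD 0.04 in SRC-2 KO and 0.12 in WT).

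The promoters of the cardiac genes are shown, with that of Tnnt1, the slow gene beside Tnni3. The shared variation of the cardiac genes was also that of the bright end of the arrays, and no link of it to these promoters was tested. The windows are RefSeq promoters of GRCm38.p6, running from 250 bases before to 50 bases after the start, 5′ to 3′ on the strand of the gene. Such windows were matched for 6 of the 8 genes, with none for Tnni2 or Tnnt3. Tnni1 and Tnnt2 had a pair of windows each, of which the upstream one of Tnnt2 is shown. Capitals mark matches on either strand to a set of motifs known from muscle promoters or from nuclear receptors. The M-CAT box was searched as CATTCC. The myogenic E-box was searched as its common form CAGCTG, which reads alike on both strands. The promoter element TATAAA and the hormone receptor half-site, searched as AGGTCA, were included. The GATA site was searched as GATA preceded by adenine or thymine and followed by adenine or guanine. The CArG box and the MEF2 site are named only.
Tnni3, chr7:4522479-4522778, minus strand: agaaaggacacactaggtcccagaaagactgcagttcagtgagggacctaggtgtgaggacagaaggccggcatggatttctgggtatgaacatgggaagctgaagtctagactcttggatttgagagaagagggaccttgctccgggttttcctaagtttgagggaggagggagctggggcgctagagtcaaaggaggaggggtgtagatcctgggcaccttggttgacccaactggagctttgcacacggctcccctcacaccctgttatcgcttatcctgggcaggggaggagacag
Tnnt2, chr1:135836084-135836383, plus strand: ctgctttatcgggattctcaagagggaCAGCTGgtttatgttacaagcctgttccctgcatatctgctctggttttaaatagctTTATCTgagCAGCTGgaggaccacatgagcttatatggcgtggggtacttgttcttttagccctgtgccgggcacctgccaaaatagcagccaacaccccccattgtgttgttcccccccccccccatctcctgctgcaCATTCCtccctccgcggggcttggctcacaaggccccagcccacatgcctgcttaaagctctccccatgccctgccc
Tnnc1, chr14:31208062-31208361, plus strand: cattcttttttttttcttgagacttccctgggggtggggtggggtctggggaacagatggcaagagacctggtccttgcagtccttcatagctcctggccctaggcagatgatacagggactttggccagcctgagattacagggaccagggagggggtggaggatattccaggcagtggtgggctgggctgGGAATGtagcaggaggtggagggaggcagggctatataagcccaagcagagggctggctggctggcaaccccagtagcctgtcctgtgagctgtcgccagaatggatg
Tnnt1, chr7:4515926-4516225, minus strand: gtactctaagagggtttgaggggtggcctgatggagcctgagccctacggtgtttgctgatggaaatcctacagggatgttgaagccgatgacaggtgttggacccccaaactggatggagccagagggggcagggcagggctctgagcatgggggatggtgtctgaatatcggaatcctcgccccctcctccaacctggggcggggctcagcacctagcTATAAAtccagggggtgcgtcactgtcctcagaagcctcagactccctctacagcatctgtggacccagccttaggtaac

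The window of Tnnt2 held an M-CAT box at -27, a GATA site at -166 and E-boxes at -157 and -223, counted from the start. The M-CAT box is bound by TEAD factors and was first described in the cardiac troponin T promoter of the chicken. The window of Tnnc1 held an M-CAT box at -58, and that of Tnnt1 a TATA box at -30. No match to any of the motifs searched was in the window of Tnni3, nor in the second window of Tnnt2 or that of Tnnc2, and both windows of Tnni1 held the same E-box. Of the 32851 promoter windows of the table, 14.7% held the M-CAT letters, 29.8% a GATA site, 13.6% the TATA letters, 16.3% the E-box, 16.3% the half-site, 1.63% a CArG box and 3.19% a MEF2 site. SRC-2 is known as a coactivator of nuclear receptors, and the half-site letters were in none of the windows matched for these genes. Tnni2 and Tnnt3 had no window to search. With the letters in 16.3% of all windows, their absence from so few windows says little. These are matches of letters, not measured binding.

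The slow skeletal forms had differences of opposite sign, and neither passed the test. Tnnt1, slow skeletal troponin T, had signals of 942, 1002.1, 1715 and 826 in SRC-2 KO hearts, against 768, 683, 858 and 727 in WT hearts. SRC-2 KO heart 3 stood far above the rest, and SRC-2 KO heart 4 lay below WT heart 3, so the groups overlapped. The averages were 1121 ± 403 in SRC-2 KO hearts and 759 ± 74.8 in WT hearts (SD, n = 4 each), a log2 fold change of 0.51 ± 0.24 (SE) with an interval of -0.04 to 1.06 and an adjusted p of 0.520 in the limma fit. A second limma fit lets the prior variance follow the mean signal, here called the trended fit, and it gave an interval of 0.10 to 0.92 with an unadjusted p of 0.0193 and an adjusted p of 0.277. The exact permutation test gave p = 0.0571. Without SRC-2 KO heart 3 the log2 fold change was 0.28, with an adjusted p of 0.675 in the main limma fit and 0.489 in the trended one.

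Tnni1, slow skeletal troponin I, was near background. Its signals were 21.0, 42.0, 19.7 and 15.9 in SRC-2 KO hearts, against 172, 83.8, 31.4 and 22.05 in WT hearts. All 4 SRC-2 KO hearts and 2 of the 4 WT hearts lay under 50, and the groups overlapped. The log2 fold change was -1.29 ± 0.67 (SE) with an interval of -2.88 to 0.29 and an adjusted p of 0.562 in the limma fit. It was -0.76 without WT heart 1 and -0.63 with signals under 50 set to 50, and neither passed the test.

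Of the fast skeletal forms, only Tnni2 had a signal over 50 in every heart, and its signal was lower in every SRC-2 KO heart than in any WT heart. Tnni2, fast skeletal troponin I, had signals of 204, 58.4, 162 and 163 in SRC-2 KO hearts, against 725, 755, 317 and 605 in WT hearts. The groups did not overlap, with SRC-2 KO heart 2 the lowest of all and WT heart 3 the lowest of its group. The averages were 147 ± 62.1 in SRC-2 KO hearts and 601 ± 199.96 in WT hearts (SD, n = 4 each), and the mean log2 signal corresponded to a level 4.27-fold lower in SRC-2 KO.

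The log2 fold change of Tnni2 was -2.10 ± 0.46 (SE), with an interval of -3.17 to -1.02. Its unadjusted p was 0.00229, and its adjusted p of 0.310 in the main limma fit did not pass. In the trended limma fit the adjusted p was 0.0367, with an interval of -2.92 to -1.27, and Tnni2 passed. It did not pass in the trended limma fit with the replicate block (adjusted p of 0.0528), after quantile normalization (0.0575) or with signals under 50 set to 50 (0.132). The exact permutation test gave p = 0.0286, the smallest it can give. The call also rested on the hearts included. In the trended limma fit Tnni2 passed without SRC-2 KO heart 1, 2 or 4 (adjusted p of 0.0366, 0.0448 and 0.0226). In that fit it did not pass without SRC-2 KO heart 3 (0.0723) or WT heart 1, 2, 3 or 4 (0.103, 0.140, 0.0514 and 0.111). In the main limma fit Tnni2 did not pass whichever heart was left out, with adjusted p of 0.236 to 0.535. The log2 fold change stayed between -2.38 and -1.70 whichever of the 8 hearts was left out.

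The other probesets of Tnni2 differed. The second, which the array design marks as open to cross-hybridisation, had signals of 114, 11.5, 90.3 and 56.4 in SRC-2 KO hearts, against 409, 414, 219 and 289 in WT hearts. The groups did not overlap here either, and the same hearts, SRC-2 KO heart 2 and WT heart 3, were the lowest of their groups. Its log2 fold change was -2.66 ± 0.71 (SE), with an adjusted p over all annotated probesets of 0.466 in the common-variance limma fit and 0.0953 in the trended one, and an exact permutation p of 0.0286. The third probeset lay under 50 in every heart but WT heart 4, at 79.6, and carries no comparison.

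Tnnt3, fast skeletal troponin T and the neighbour of Tnni2 beyond Lsp1, was under 50 in all 8 hearts, at 2.24 to 8.66 in SRC-2 KO hearts and 6.64 to 30.1 in WT hearts. Tnnc2, fast skeletal troponin C, was likewise under 50 in all 8 hearts, at 6.84 to 27.7 in SRC-2 KO hearts and 6.19 to 33.4 in WT hearts. No fold change is reported for either here, and their adjusted p in the limma fit was 0.496 for Tnnt3 and 0.930 for Tnnc2. The genes between the troponin pairs did not pass either. Lsp1, a leukocyte protein that binds actin, averaged 348 ± 79.3 in SRC-2 KO hearts and 545 ± 79.6 in WT hearts, with a log2 fold change of -0.67 and an adjusted p of 0.404 in the limma fit. Lad1, ladinin of the basement membrane, averaged 1099.7 ± 162 in SRC-2 KO hearts and 826 ± 149 in WT hearts, with a log2 fold change of 0.42 and an adjusted p of 0.4996 in the limma fit.

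**Figure D2:**
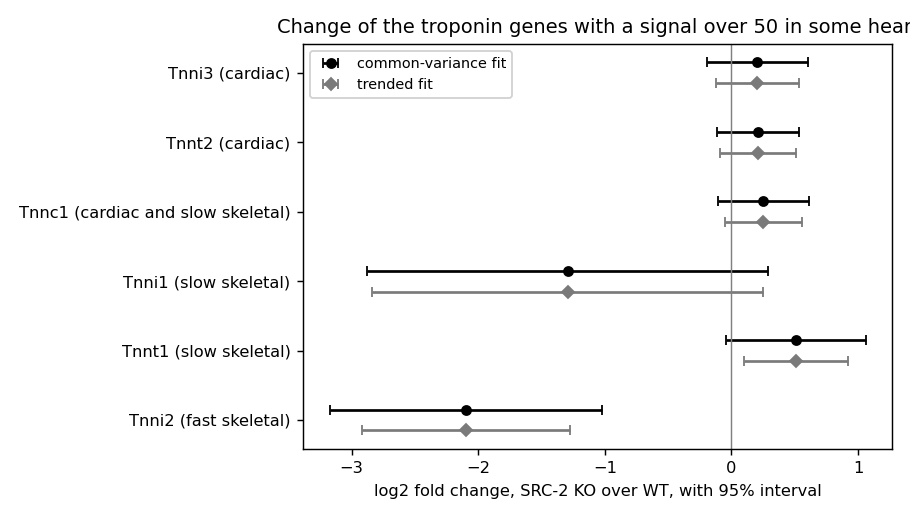
Log2 fold change of SRC-2 KO over WT with its 95% interval for the 6 troponin genes that had a signal over 50 in some heart, in the common-variance fit (circles) and the trended fit (diamonds). The interval of Tnni2, -3.17 to -1.02 in the common-variance fit, lies below 0, and that of Tnnt1 lies above 0 in the trended fit only.

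Whether a skeletal form changed by another amount than the cardiac form of its subunit was tested within each heart, over 5 such pairs, by exact permutation of the 8 hearts. The log2 ratio of Tnni2 to Tnni3 was lower by 2.30 ± 0.47 (SE) in SRC-2 KO hearts than in WT hearts, with p = 0.0286 in the exact permutation test, the smallest it can give, and 0.0714 after Benjamini-Hochberg adjustment over the 5 pairs. The ratio of Tnnt3 to Tnnt2 gave the same p-values, and that of Tnnc2 to Tnnc1 gave p = 0.543, adjusted 0.543, in the exact permutation test. Both rest on signals under 50 in every heart, so the sizes of their differences are not given. The ratio of Tnni1 to Tnni3 differed by -1.50 (p = 0.0857, adjusted 0.143) and that of Tnnt1 to Tnnt2 by 0.30 (p = 0.343, adjusted 0.429), both by the exact permutation test. With 4 against 4 hearts and 5 pairs, no pair can pass after adjustment unless at least 3 reach the smallest p, so these adjusted values say little either way.

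The calls among the 8 members were counted beside those over all genes. In the common-variance limma fit 0 of the 8 members passed an adjusted p of 0.05 in either direction, where 0.0055% of all genes were called higher and 0.0165% lower. In the trended fit 0 members were called higher and 1, Tnni2, was called lower, where 0.121% of all genes were called higher and 0.258% lower. At an unadjusted p under 0.05, 1 of 8 members passed in the common-variance limma fit, against 10.1% of all genes, and 2 of 8, Tnni2 and Tnnt1, in the trended one, against 12.6%. All 4 SRC-2 KO values lay below all 4 WT values for 1 of 8 members, against 3.72% of all genes, and above them for 0 of 8, against 3.11%.

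The partners of troponin on the thin filament were described from a list of 15 genes, all measured. Of these, 8 had a positive and 7 a negative log2 fold change, the median was 0.00, and 0 passed an adjusted p of 0.05 in either limma fit. The 3 with an unadjusted p under 0.05 were Fhl2, Tpm3 and Acta1. Fhl2, a LIM-domain protein of the sarcomere, averaged 62657 ± 5313 in SRC-2 KO hearts and 46039 ± 3746 in WT hearts (log2 fold change 0.44, adjusted p of 0.365 in the limma fit), with no overlap. Tpm3, a tropomyosin of slow muscle and of the cytoskeleton, averaged 2319 ± 599.5 in SRC-2 KO hearts and 3248 ± 61.5 in WT hearts (log2 fold change -0.52, adjusted p of 0.462 in the limma fit), also with no overlap. Nebl of the same list was lower without overlap too (log2 fold change -0.17, adjusted p of 0.593 in the limma fit). Over all genes, 3.72% lay below without overlap and 3.11% above. Acta1, skeletal alpha-actin, averaged 11399 ± 9410.3 in SRC-2 KO hearts and 23236 ± 4974 in WT hearts (log2 fold change -1.37, adjusted p of 0.490 in the limma fit). Tpm1, the tropomyosin that troponin T binds in the heart, averaged 76512 ± 9742 in SRC-2 KO hearts and 63706 ± 10022 in WT hearts, a log2 fold change of 0.27.

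Of 19 measured genes of the cardiac thick filament and Z-disc, 18 had a positive and 1 a negative log2 fold change, with a median of 0.12, and 0 passed in either fit. The 100 brightest other probesets, by comparison, differed by 0.18. Relative to them 6 genes of the list were higher and 13 lower in SRC-2 KO hearts, with a median of -0.07. Only troponin probesets were left out of these 100. Bright genes of the filament lists, such as Myh6, Myl3, Actc1 and Tpm1, are among them, so these lists are partly compared with themselves. On the same relative scale the thin filament list had 4 higher and 11 lower, with a median of -0.18. Myom1, which crosslinks the M-band, had the smallest p of the thick filament and Z-disc list, with a log2 fold change of 0.40. Of 16 measured kinases and phosphatases that act on troponin, 9 were higher and 7 lower, with a median of 0.07, and 0 passed. Relative to the 100 brightest other probesets they were 5 and 11, with a median of -0.11. Prkca, protein kinase C alpha, averaged 501 ± 105 in SRC-2 KO hearts and 737 ± 70.4 in WT hearts (log2 fold change -0.57, adjusted p of 0.402 in the limma fit). Prkaca, the catalytic subunit of the protein kinase A that phosphorylates cardiac troponin I, averaged 10664 ± 551 in SRC-2 KO hearts and 8965 ± 420.1 in WT hearts (log2 fold change 0.25, adjusted p of 0.467 in the limma fit). Of 9 factors that splice troponin T transcripts, 4 were higher and 5 lower, with a median of -0.03, and 0 passed, and relative to the brightest probesets they were 1 and 8, with a median of -0.22. A probeset signal does not show which spliced form of Tnnt2 was made. Over all 18194 genes, 8558 had a positive and 9636 a negative log2 fold change, with a median of -0.03. The counts of higher and lower genes of every list here are of these signs. The relative scale lowers the log2 fold change of every gene, listed or not, by the same 0.18. The counts and medians on that scale are therefore not comparable with these values over all genes, and more lower genes there do not set a list apart.

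Because Tnni2, Tnnt3 and Tnnc2 belong to fast skeletal muscle, markers of that tissue were set beside them. Of 22 measured skeletal muscle genes, 9 were higher and 13 lower in SRC-2 KO hearts, the median log2 fold change was -0.25, 0 passed in either fit, and 13 had both group means under 50. That median was -0.66 without SRC-2 KO heart 1, -0.09 without SRC-2 KO heart 4 and -0.52 without WT heart 3. The fast fibre markers Myh1, Myh4 and Actn3 were among those 13. The summed signal of the list was 12958.5 to 19766 in SRC-2 KO hearts and 7578 to 21691 in WT hearts, most of it from Myl1. Over the 8 hearts r of Myl1 was 0.88 with Tnni3, 0.83 with Tnnt2 and 0.87 with Tnnc1. The sum therefore says little of skeletal muscle. Casq1 averaged 1428 ± 647 in SRC-2 KO hearts and 2404 ± 533 in WT hearts, with overlap. Mylpf, the fast regulatory light chain, averaged 137 ± 30.1 in SRC-2 KO hearts and 122 ± 70.7 in WT hearts. Mybpc2, fast myosin binding protein C, had signals of 798, 541, 256 and 848 in SRC-2 KO hearts, against 1245, 867, 1129.8 and 958 in WT hearts. Its SRC-2 KO values all lay below its WT values, as did those of 3.72% of all genes. Atp2a1, the fast muscle calcium pump, had 17.8, 26.8, 100.2 and 120.0 in SRC-2 KO hearts, against 148, 135, 91.1 and 136 in WT hearts. Neither Mybpc2 nor Atp2a1 passed the test, with adjusted p of 0.494 and 0.531 in the limma fit.

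Most markers of atrial muscle had lower means in SRC-2 KO hearts. Of 12 measured atrial genes, 1 was higher and 11 were lower in SRC-2 KO hearts, with a median of -1.36, and 0 passed in the common-variance limma fit, while 1, Stard10, was called lower in the trended fit with a log2 fold change of -1.64 and an adjusted p of 0.0188. The summed signal of the list was 23679 to 206347 in SRC-2 KO hearts and 168001 to 277639 in WT hearts. Sln, sarcolipin, which inhibits the calcium pump of muscle, had signals of 20862, 6285, 348 and 4271 in SRC-2 KO hearts, against 30692, 46212, 36091 and 23815 in WT hearts. Myl7, the atrial regulatory light chain, had 45856, 17756, 1475 and 9999 in SRC-2 KO hearts, against 57686, 64438, 56445 and 39799 in WT hearts. SRC-2 KO heart 3 had by far the lowest signal for both.

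The 4 SRC-2 KO hearts were the 4 lowest of all 8 for Tnni2 and for Sln, and SRC-2 KO hearts 2, 3 and 4 were the 3 lowest for Tnni2, Sln and Myl7, in an order that differed between the genes. Over the 8 hearts Pearson's r of Tnni2 with Sln was 0.61 and Spearman's rho was 0.86, and with each genotype centred on its own mean r was -0.04. With Myl7 r was 0.56 and rho 0.86 over all hearts, and r was -0.06 within genotypes. With Atp2a1 r was 0.66 and rho 0.67, and r was 0.32 within genotypes. For Mylpf, Myl1 and Actn3, the other skeletal muscle genes for which it was computed, r with Tnni2 was -0.26, -0.26 and -0.03. Their rho with Tnni2 was -0.40, -0.14 and 0.05, and r within genotypes was -0.02, 0.03 and -0.04. Both group means of Actn3 were under 50. No correlation was computed for the rest of the list, which includes Casq1 and Mybpc2, both with lower means in SRC-2 KO hearts. For Tnnt1, which was highest in SRC-2 KO heart 3, r with Sln was -0.89 and rho -0.71 over the 8 hearts, and r was -0.81 within genotypes. With Myl7 r was -0.87 and rho -0.67, and r was -0.77 within genotypes. All these values for Tnnt1 include SRC-2 KO heart 3, which had the highest Tnnt1 (1715) and the lowest Sln (348) and Myl7 (1475). They were not computed without that heart, so they do not show a link that holds in the other hearts. These are descriptions over 8 hearts that share their genotype difference, and the part of atrial or skeletal muscle content in the values of Tnni2 and Tnnt1 was not tested.

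**Figure D3:**
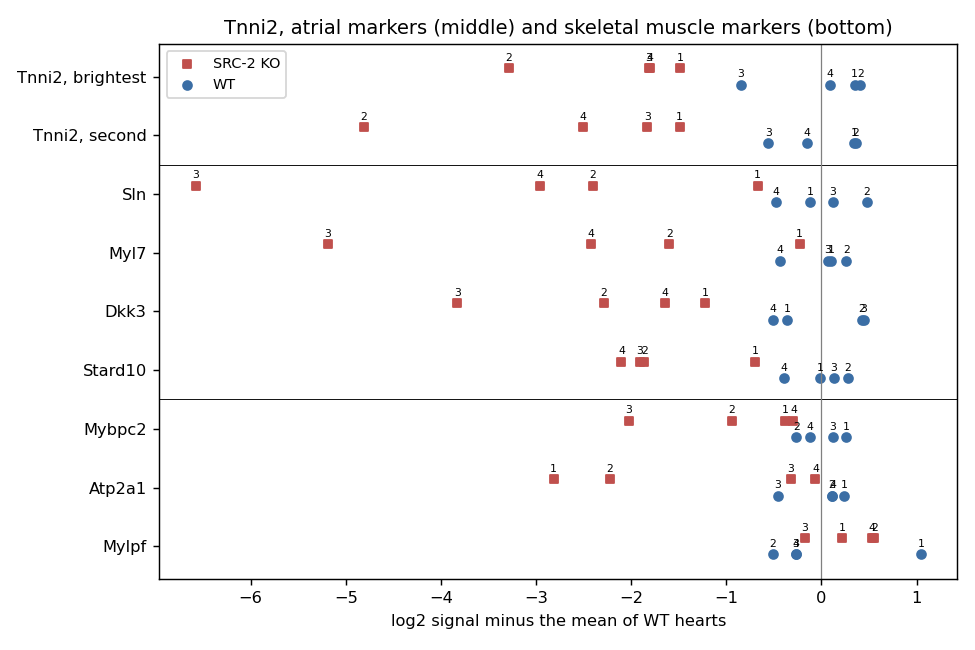
Log2 signal per heart, relative to the average over WT, for the brightest and the second probeset of Tnni2 (top), the atrial markers Sln, Myl7, Dkk3 and Stard10 (middle) and the skeletal muscle markers Mybpc2, Atp2a1 and Mylpf (bottom), with SRC-2 KO as squares above WT as circles. The numbers are the hearts, and SRC-2 KO heart 2 is lowest for Tnni2 while SRC-2 KO heart 3 is lowest for Sln, Myl7 and Dkk3.

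Other cell types of a whole heart were read in the same way. Of 9 fibroblast genes 0 were higher and 9 lower, with a median of -0.67, of 8 endothelial genes 0 were higher and 8 lower, with a median of -0.23, and of 8 macrophage genes 0 were higher and 8 lower, with a median of -0.37, and 0 of each list passed in either limma fit. Of 5 measured adipocyte genes 5 were higher, with a median of 0.65, which was 0.11, with 4 higher and 1 lower, without SRC-2 KO heart 4. Of 6 measured conduction system genes 2 were higher and 4 lower, with a median of -0.26 (-0.13 without SRC-2 KO heart 1), and 0 of either list were called. Of 7 smooth muscle genes 2 were higher and 5 lower, with a median of -0.12 (0.07 without SRC-2 KO heart 3), and 1, Acta2, was called higher in the trended limma fit with a log2 fold change of 0.74 and an adjusted p of 0.0421. Acta2, smooth muscle alpha-actin, was also the only call among 9 genes of the fetal gene program, of which 2 were higher and 7 lower, with a median of -0.36 (-0.60 without SRC-2 KO heart 1 and -0.12 without SRC-2 KO heart 3). Myl7, Myl4 and Nppa, with log2 fold changes of -2.36, -2.12 and -1.09, are on both this list and the atrial one. Acta1 and Actc1 are also on the thin filament list, so these lists are not separate readings.

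The genes whose pattern over the 8 hearts was most like that of a member were taken from 9092 genes with signal above the median. For Tnni3 they were Slc25a4, Myl3 and Tpt1, with r of 0.99 or above, for Tnnt2 they were Cox5b, Myh6 and Atp5c1, each with r of 0.99, and for Tnnc1 they were Aldoa, Slc25a3 and Atp5g3, each with r of 0.99. Slc25a4, the mitochondrial exchanger of ADP and ATP, Myl3, the ventricular essential light chain, and Myh6, the adult cardiac myosin heavy chain, are abundant transcripts of heart muscle. For Tnnt1 they were Rsad1 (r of 0.98), Wdr7 (0.96) and Timm8b (0.96). For Tnni2 they were the zinc transporter gene Slc30a4 (r of 0.96), Unc93b1 (0.96), which carries Toll-like receptors to endosomes, and Daam2 (0.95), a formin. Slc30a4, Unc93b1 and Daam2 were also lower in SRC-2 KO hearts, with log2 fold changes of -0.28, -0.57 and -0.85. All these genes were picked as the highest of 9092 correlations over 8 hearts, so high r is a description only. For them r within genotypes was not computed.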

How the data were processed

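The authors deposited linear signal intensities for 45101 probesets on 8 arrays. Their processing notes list Partek, RMA and Affymetrix Expression Console, with no versions, and the methods describe RMA values. The deposited intensities, from 0.219 to 124739, do not share a distribution, although RMA ends with quantile normalization, so how they were made is not settled. A design that assumed log2 values was met by taking log2 of them, with no floor. Of 35890 annotated probesets, 34958 with 1 gene symbol were used, and the brightest of each gene gave 18194 genes (18033 have a current symbol).

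The genotypes were compared by limma 3.58.1 in R 4.3.3 (lmFit and eBayes, two-sided, Benjamini-Hochberg), without a trend in the main fit and with one in the other. Both were tested on simulated data. Figures used Python 3.11.15 and matplotlib 3.10.9. The number of arrays limits precision. Same-numbered hearts were not treated as pairs. Members, gene lists and tests were chosen with earlier results of these data known. Named genes were Ncoa2, the members, up to 3 of each list with the smallest p, markers set beside a member, and the 3 genes most like each member with a mean above 50 (Tnni1, under 50 in most hearts, was left out of the text). Tpm1, Nebl, Lsp1, Lad1 and single markers were named after their values were seen.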

Additional observations from a re-analysis of the deposited data

How the results depend on the processing

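Over all genes, the main limma fit called 1 gene higher and 3 lower. The trended fit called 22 higher and 47 lower. Higher and lower calls were 0 and 0 with the replicate block, 0 and 1 with the mean of all probesets, 4 and 18 with dim genes left out, 0 and 7 with a floor of 50, and 0 were higher with quantile normalization. Array weights gave 5 lower, and values relative to the 100 brightest other probesets also gave 5. Trended fits chosen after seeing the data called 3 and 9 with the floor, 17 and 30 with quantile normalization, 29 and 57 with dim genes left out, and 25 and 47 with the replicate block. Leaving out each heart gave 0 to 1 higher and 1 to 5 lower in the main fit. It gave 2 to 104 higher and 3 to 216 lower in the trended fit, the most without SRC-2 KO heart 4 and the fewest without WT heart 2.

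Of the troponin genes, 0 were called lower in the main fit, 1 in the trended fit and 1 in the trended fit with dim genes left out. When each heart was left out, 0 were called lower in the main fit and 0 to 1 in the trended fit. Tnni2 had a log2 fold change of -2.10 with adjusted p of 0.0367 in the trended limma fit and 0.0324 with dim genes also left out. It did not pass in the trended fit with the floor (0.132), quantile normalization (-2.001, adjusted p of 0.0575) or the replicate block (0.0528). Its change ranged from -2.38 to -1.70 over the hearts left out. The change of Tnnt2 was 0 after quantile normalization in both fits, which gives each rank the same value on every array. The log2 difference of Tnnc2, which has no meaning as a fold on signals under 50, turned to 0.06, 0.02 and 0.21 without SRC-2 KO heart 1, SRC-2 KO heart 2 and WT heart 1, within a range of -0.62 to 0.21. The causes were not tested.

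The replicate numbers gave no clear pairing: the deviations of same-numbered hearts from their genotype means had correlations of 0.07, -0.08, -0.03 and 0.12. The WT heart most like a SRC-2 KO heart had its number for replicates 1 and 4, and another for 2 and 3. These values do not settle whether the hearts were paired. With the replicate block the within-heart ratio of Tnni2 to Tnni3 differed by -2.30, a value the balanced design fixes, and a sign-change test of 4 pairs cannot give an exact p below 0.125, so no within-heart ratio could pass there. Signals near background limit what can be said of Tnni1, Tnnt3 and Tnnc2.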
